A study of Mus musculus with 10 samples.

Results

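A set of 8 genes that establish and keep the germ line were followed in oocytes of the mouse fetal ovary: Prdm1, Prdm14, Tfap2c, Nanos3, Dnd1, Lin28a, Kit and Ifitm3. They were taken by symbol from the deposited tables, which hold 55536 genes, and all 8 of 8 were measured well enough to be tested among 20317 genes. The 10 bulk RNA libraries came from female germ cells sorted for green fluorescence at embryonic day E14.5, when these cells are entering meiosis. Their genotypes were Taf4b-deficient (4 libraries, labelled infertile), Taf4b-heterozygous (4, fertile) and Taf4b-wildtype (2, fertile), on a C57BL/6 background per the labels. Every fetus, controls included, came from parents homozygous for the Oct4-EGFP transgene and heterozygous for the Taf4b-deficiency mutation. The sort therefore rests on a reporter of Pou5f1 (Oct4), itself a gene of the early germ cell state. Litters were of January 29, March 1 and March 7 of 2019. The labels do not say whether each library is a separate fetus, and a p-value here speaks only for the spread among these libraries, which may be technical.

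In the mouse embryo, BMP signals induce Prdm1 and Prdm14 in a few epiblast cells, and together with Tfap2c these factors set up primordial germ cells by silencing somatic genes and restoring the pluripotency network. Nanos3 and Dnd1 encode RNA-binding proteins, and Kit encodes a receptor, without which the migrating cells die. Lin28a encodes an RNA-binding protein that blocks processing of let-7 microRNA, and Ifitm3 (fragilis) is a classic surface marker of nascent germ cells. Female germ cells are known to lower much of this early programme when they turn to meiosis. The TAF4B protein, abundant in gonads, belongs to the TFIID complex of the basal transcription machinery.

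On GRCm38 with the GENCODE M21 annotation 7 of the genes lie as follows, and Dnd1 is placed with its values below. Prdm1 spans chromosome 10, 44437177 to 44528501 (minus strand, up to 8 exons). Prdm14 spans chromosome 1, 13113457 to 13127163 (minus, 8 exons), and Tfap2c chromosome 2, 172549593 to 172558622 (plus, 7 exons). Nanos3 spans chromosome 8, 84173731 to 84185217 (minus, 2 exons). Lin28a spans chromosome 4, 134003330 to 134018841 (minus, 4 exons), Kit chromosome 5, 75574916 to 75656722 (plus, 21 exons), and Ifitm3 chromosome 7, 141009586 to 141010770 (minus, 2 exons). All 8 genes are protein-coding.

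The promoters of 4 of the genes are shown as the start regions of 3 genes that fell as meiotic genes rose (Prdm1, Nanos3 and Kit) and of Lin28a, which did not pass that test. The difference in slope between these genes was not tested. From the RefSeq table (GRCm38.p6), 300 bases, 250 before and 50 after the annotated start, were used for 5 of the 8 genes. No window was used for Prdm14, Tfap2c or Dnd1, which does not show that the source lacks them. Windows are chr10:44458699-44458998 on the minus strand for Prdm1, chr8:84176503-84176802 on the minus strand for Nanos3, chr5:75574737-75575036 on the plus strand for Kit (the first of 2 listed) and chr4:134018767-134019066 on the minus strand for Lin28a. The Prdm1 and Nanos3 windows lie inside the gene spans given above, away from their upstream ends (44528501 and 84185217). Which start these cells use was not tested. Each window is written 5′ to 3′ along the gene, and capitals mark matches to any of 5 motifs searched on both strands. The Sp box was searched as GGGCGG, which is the core that Sp factors bind. For the CCAAT box, a common element of proximal promoters, the letters were CCAAT. The search for an AP-2 site, the kind of element that TFAP2C binds, used GCCNNNGGC. A TATA box, which anchors TFIID upstream of some start sites, was taken as TATAAA. The E-box, an element of basic helix-loop-helix factors, was taken as CACGTG.
Prdm1: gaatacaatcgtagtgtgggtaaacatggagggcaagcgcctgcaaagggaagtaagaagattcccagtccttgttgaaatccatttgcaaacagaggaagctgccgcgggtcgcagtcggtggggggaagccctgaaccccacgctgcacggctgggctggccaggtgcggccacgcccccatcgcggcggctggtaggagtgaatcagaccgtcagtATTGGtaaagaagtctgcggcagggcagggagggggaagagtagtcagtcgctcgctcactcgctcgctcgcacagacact
Nanos3: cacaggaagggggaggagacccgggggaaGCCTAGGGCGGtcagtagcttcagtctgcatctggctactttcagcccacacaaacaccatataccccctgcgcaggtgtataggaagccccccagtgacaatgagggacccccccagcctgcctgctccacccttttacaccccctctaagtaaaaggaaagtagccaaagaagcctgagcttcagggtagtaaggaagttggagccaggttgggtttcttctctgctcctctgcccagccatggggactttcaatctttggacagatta
Kit: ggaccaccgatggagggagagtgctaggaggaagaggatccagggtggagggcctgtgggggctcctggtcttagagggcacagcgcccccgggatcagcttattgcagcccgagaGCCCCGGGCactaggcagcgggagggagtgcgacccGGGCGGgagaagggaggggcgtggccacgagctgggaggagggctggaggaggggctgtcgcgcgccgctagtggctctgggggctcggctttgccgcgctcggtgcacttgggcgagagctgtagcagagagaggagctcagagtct
Lin28a: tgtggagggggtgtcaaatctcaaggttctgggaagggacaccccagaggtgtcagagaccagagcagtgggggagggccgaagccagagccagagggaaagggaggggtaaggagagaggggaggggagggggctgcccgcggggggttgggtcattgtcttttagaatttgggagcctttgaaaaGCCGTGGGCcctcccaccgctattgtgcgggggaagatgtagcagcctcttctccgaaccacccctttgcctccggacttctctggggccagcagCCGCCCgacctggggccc
In Nanos3 the capitals cover an AP-2 match and a Sp box that overlap. The AP-2 site stood once each in the Nanos3, Kit and Lin28a windows, and 16.6% of all 32851 promoters of this length hold it. The Sp box stood once each in the Nanos3, Kit, Lin28a and Ifitm3 windows (35.7% of all promoters), and Prdm1 held 1 CCAAT box (37.4%). The TATA box (13.6%) and the E-box (7.2%) had no match in the 5 windows. The Prdm1 and Kit windows held 20 CpG dinucleotides each, Lin28a 10, Ifitm3 5 and Nanos3 3.

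Library totals ran from 28949924 to 44166320 reads, and CPM (read counts scaled to library size, with TMM factors) is used to compare 1 gene between libraries. Taf4b itself stood at 56.1 to 64.9 CPM in deficient libraries, 144 to 234 CPM in heterozygous libraries and 152 to 207 CPM in wildtype libraries. It was lower in deficient than in heterozygous libraries by edgeR (log2 change -1.71, SE 0.17, adjusted p = 0.0118) and lower in 4 of 4 deficient libraries than in both wildtype ones (-1.56, adjusted p = 0.113). Germ cell markers were abundant, with Dazl at 2284 CPM or more in every library. Summed marker levels of 10 blood and macrophage genes were 17.2 to 23.6 CPM in deficient, 7.93 to 14.3 CPM in heterozygous and 15.5 to 24.4 CPM in wildtype libraries. For 10 supporting cell genes they were 31.9 to 42.9, 21.1 to 42.0 and 19.4 to 49.04 CPM, and for 8 stromal genes 4.27 to 10.9, 3.29 to 6.56 and 7.78 to 8.98 CPM in the same order of genotypes. Of 6 endothelial genes, Pecam1 alone was high (64.8 to 380.4 CPM), and the other 5 summed to 1.52 to 3.71 CPM over all libraries. No defining marker was at 0 in every library. In these bulk samples fewer cells of a type and less RNA per cell cannot be told apart.

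Across genes, levels are compared per length in TPM, as the authors deposited them. Ifitm3 had the highest median over the 10 libraries, 366 TPM (range 219 to 586), above 97.3% of the tested genes whose median exceeded 1 TPM. Kit followed at 260 TPM (150 to 355), then Dnd1 at 105 TPM (29.3 to 194) and Lin28a at 60.9 TPM (18.8 to 92.2). The transcription factor genes Tfap2c at 37.1 TPM (18.6 to 91.7), Prdm1 at 33.7 TPM (15.4 to 56.9) and Prdm14 at 29.1 TPM (11.8 to 52.7) lay close together, and Nanos3 was lowest at 23.2 TPM (11.6 to 44.3). All neighbours in this order had overlapping ranges over the libraries. Within a library the order was firmer at the top: Ifitm3 exceeded Kit, and Kit exceeded Dnd1, in 10 of 10 libraries. Dnd1 exceeded Lin28a in 8, Lin28a exceeded Tfap2c in 7, Tfap2c exceeded Prdm1 in 8, Prdm1 exceeded Prdm14 in 6 and Prdm14 exceeded Nanos3 in 8 of 10. The 2 libraries with Dnd1 below Lin28a, heterozygous replicates 2 and 4, are among 4 in which Dnd1 TPM was low for its read count, as described below.

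**Figure D1:**
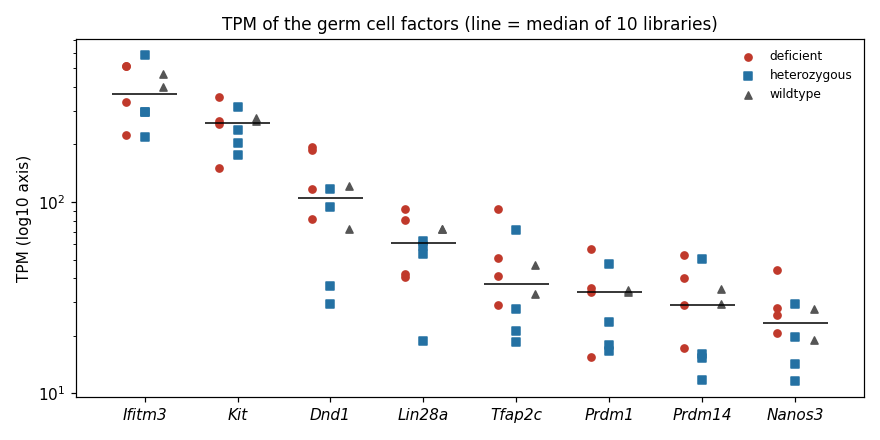
Deposited TPM (log10 axis) of the 8 germ cell factor genes, 1 point per library by Taf4b genotype, with a line at the median of the 10 libraries. Medians run from 366 TPM for Ifitm3 to 23.2 TPM for Nanos3, and neighbouring genes overlap.

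Deficient against heterozygous libraries asked how these genes differ between the deficient and the heterozygous genotype. None of the 8 was called: edgeR's quasi-likelihood test called 3 of 20317 genes in all (0.0148%; a call is a Benjamini-Hochberg adjusted p under 0.05). None had an unadjusted p under 0.05 either (11.9% of all genes), and none had groups without overlap (5.97%). All 8 had a fitted change above 0, with a median log2 fold change of 0.49 beside -0.05 over all tested genes, but the libraries of both genotypes were widely spread. The summed blood and macrophage markers given above were higher in 4 of 4 deficient libraries than in any heterozygous one, and their part in these differences was not tested.

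The specification factors come first. Prdm1, a zinc-finger repressor, stood at 73.0, 35.4, 135 and 75.0 CPM in deficient libraries (values follow replicate number here and below), 109, 34.4, 34.9 and 47.9 CPM in heterozygous libraries, and 80.8 and 68.5 CPM in wildtype libraries. Deficient replicate 3 and heterozygous replicate 1 were high, and all 3 genotypes overlapped. Its change was 0.49 (SE 0.43) in deficient over heterozygous libraries.

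Prdm14, a partner of Prdm1 that guards pluripotency, stood at 40.8, 24.0, 78.3 and 53.0 CPM in deficient libraries, 73.6, 15.4, 19.3 and 20.6 CPM in heterozygous libraries, and 51.9 and 38.8 CPM in wildtype libraries. Heterozygous replicate 1 held more than 3 times any other library of its genotype, inside the deficient range. The change was 0.60 (SE 0.50, adjusted p = 0.604 by edgeR). Tfap2c, which encodes the AP-2 gamma transcription factor downstream of Prdm1, stood at 65.3, 45.5, 152 and 76.4 CPM in deficient libraries, 116, 27.6, 37.4 and 30.2 CPM in heterozygous libraries, and 77.5 and 50.0 CPM in wildtype libraries. Again deficient replicate 3 and heterozygous replicate 1 led, and the change of 0.68 (SE 0.49) had an adjusted p of 0.561 by edgeR.

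Among the survival factors, Nanos3 came closest to a difference. It stood at 11.02, 9.33, 18.6 and 11.7 CPM in deficient libraries, 12.6, 4.78, 7.57 and 5.78 CPM in heterozygous libraries, and 12.3 and 7.88 CPM in wildtype libraries. Of the deficient libraries, 4 of 4 exceeded 3 of 4 heterozygous ones, and heterozygous replicate 1 lay above all deficient libraries but replicate 3. The change was 0.72 (SE 0.33, 95% interval -0.0041 to 1.44, unadjusted p = 0.0511 and adjusted p = 0.421 by edgeR).

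Dnd1, whose protein works with NANOS proteins on target mRNAs, stood at 99.4, 71.9, 173 and 148 CPM in deficient libraries, 199, 52.9, 114 and 67.5 CPM in heterozygous libraries, and 135 and 101 CPM in wildtype libraries. The heterozygous libraries spanned 3.77-fold and enclosed the whole deficient range. Its change was 0.18 (SE 0.39). Kit, the receptor tyrosine kinase for stem cell factor, stood at 632, 347, 855 and 590 CPM in deficient libraries, 838, 418, 385 and 476 CPM in heterozygous libraries, and 688 and 598 CPM in wildtype libraries. Both its highest and its lowest library were deficient, replicates 3 and 2, and the change was 0.19 (SE 0.29).

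Ifitm3, a membrane protein gene of the interferon-induced family, stood at 126, 84.8, 204 and 187 CPM in deficient libraries, 228, 78.3, 100.0 and 102 CPM in heterozygous libraries, and 186 and 143 CPM in wildtype libraries. The deficient range lay inside the heterozygous one, and the change was 0.24 (SE 0.35). Lin28a stood at 147, 73.6, 173 and 72.3 CPM in deficient libraries, 111, 87.9, 28.9 and 104 CPM in heterozygous libraries, and 139 and 125 CPM in wildtype libraries. Its lowest libraries were heterozygous replicate 3 and deficient replicates 4 and 2, and the groups overlapped. The change was 0.49 (SE 0.40).

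**Figure D2:**
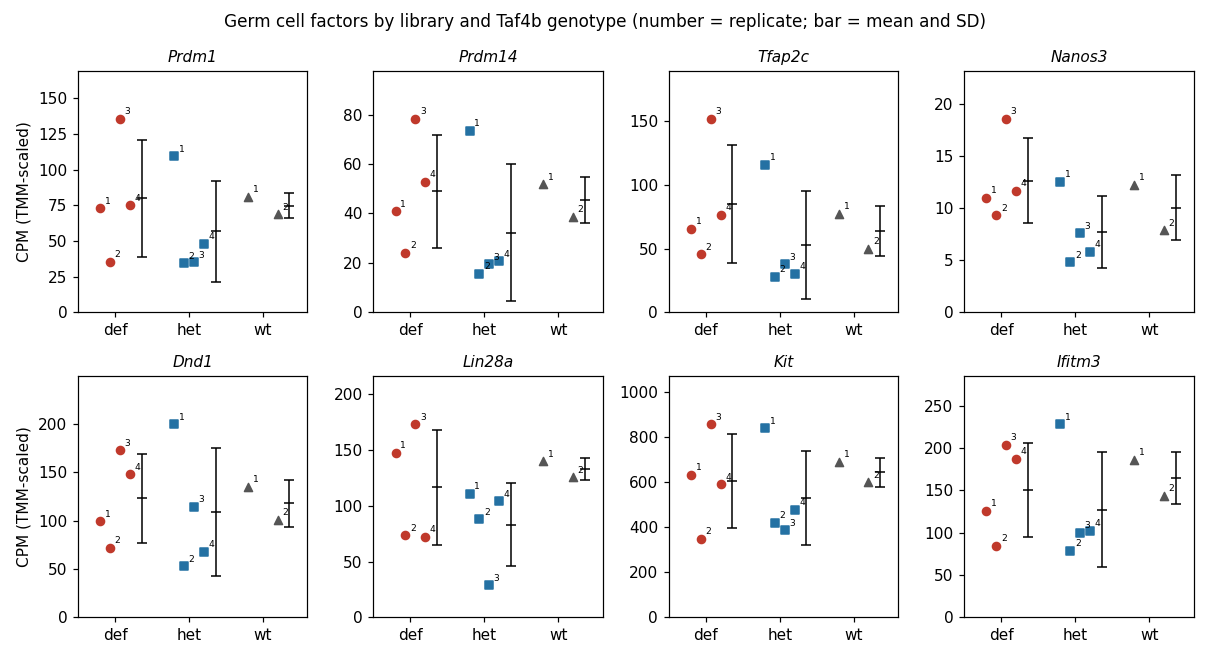
CPM of each gene in every library, by Taf4b genotype (def, deficient; het, heterozygous; wt, wildtype); numbers are replicates and bars give mean and SD. Deficient replicate 3 and heterozygous replicate 1 are the top pair in 7 of the 8 panels, Lin28a being the exception.

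The size of these differences moved with single libraries in both directions. Without heterozygous replicate 1 the log2 fold changes in deficient over heterozygous libraries were 1.41 for Prdm14, 1.42 for Tfap2c, 1.06 for Nanos3, 1.03 for Prdm1, 0.69 for Ifitm3, 0.66 for Lin28a, 0.65 for Dnd1 and 0.51 for Kit. All were still uncalled, with edgeR adjusted p-values from 0.0573 for Prdm14 to 0.337 for Lin28a. Without deficient replicate 3 they were 0.30 for Prdm14, 0.26 for Tfap2c, 0.49 for Nanos3, 0.13 for Prdm1, 0.079 for Ifitm3, 0.27 for Lin28a, -0.013 for Dnd1 and 0.0035 for Kit. Over all omissions of 1 library, Lin28a ran from 0.26 without heterozygous replicate 3 to 0.66, and Dnd1 was also just below 0 (-0.0088) without heterozygous replicate 2. The number of called genes was 344 without heterozygous replicate 1.

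Deficient against wildtype libraries compared the Taf4b-deficient with the unaltered genotype. None of the 8 genes was called, as none of all 20317 was (0% by edgeR; 743 genes, 3.66%, had an unadjusted p under 0.05, none of the 8 among them, and DESeq2 called 1). The largest change was that of Tfap2c, 0.41 (SE 0.61, 95% interval -0.93 to 1.75), followed by Nanos3 at 0.33 (SE 0.41). Prdm14 (0.11), Prdm1 (0.09) and Dnd1 (0.06) were slightly above 0, and Lin28a (-0.19), Ifitm3 (-0.13) and Kit (-0.09) slightly below. All 8 genes had overlapping groups, where 12.6% of all genes had not. At least 1 wildtype library lay inside the deficient range for every one of the 8. With 2 wildtype libraries the 95% intervals reach about a doubling in either direction for most of the genes, as for Prdm14 (-1.23 to 1.45) and Dnd1 (-1.002 to 1.13).

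Heterozygous against wildtype libraries gave 8 fitted changes below 0, a median of -0.38 beside 0.02 over all tested genes, and no call among the 8 (edgeR called 1 gene, 0.00492%; 8.3% had an unadjusted p under 0.05, none of the 8 among them). This comparison shares its wildtype libraries with the previous one and its heterozygous libraries with the first. Lin28a had the largest change, -0.68 (SE 0.48, edgeR adjusted p = 0.778), and was the only one of the 8 whose groups did not overlap: 4 of 4 heterozygous libraries, at 28.9 to 111 CPM, lay under both wildtype libraries, at 125 and 139 CPM. Of all tested genes 6.64% lay wholly lower in the same way and 15.8% did not overlap in either direction. For Prdm1, Prdm14, Tfap2c, Nanos3, Kit and Ifitm3, heterozygous replicates 2 to 4 lay under both wildtype libraries and replicate 1 lay above both. Their changes ran from -0.49 for Prdm14 to -0.27 for Tfap2c, and that of Dnd1 was -0.12. Without heterozygous replicate 1 they were -1.30 for Prdm14, -1.005 for Tfap2c, -0.94 for Prdm1, -0.82 for Ifitm3, -0.73 for Nanos3, -0.59 for Kit, -0.59 for Dnd1 and -0.85 for Lin28a, none of them called. Without wildtype replicate 1 they were -0.28 for Prdm14, 0.062 for Tfap2c, -0.30 for Prdm1, -0.19 for Ifitm3, -0.055 for Nanos3, -0.20 for Kit, 0.093 for Dnd1 and -0.62 for Lin28a.

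**Figure D3:**
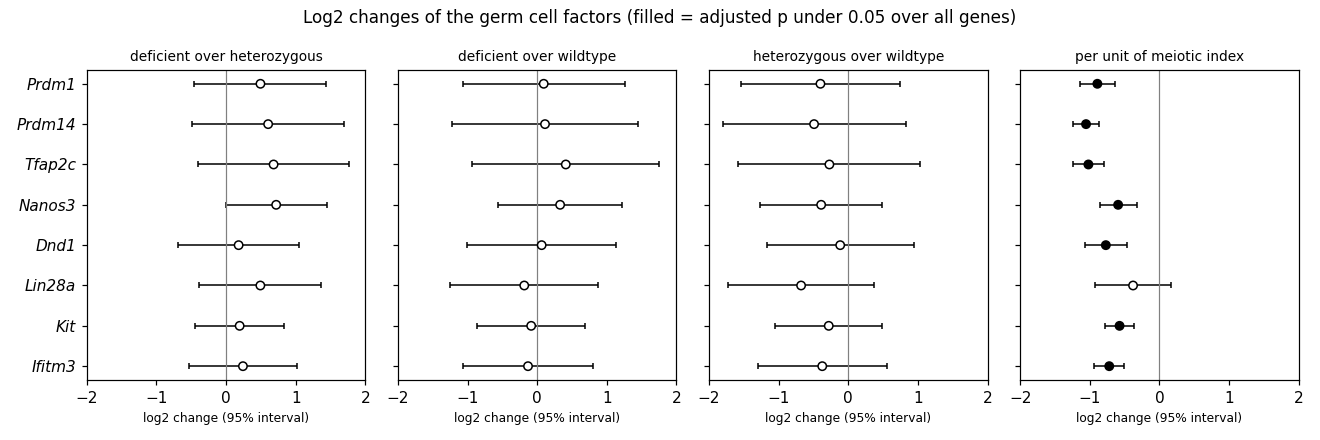
Log2 changes of the 8 genes with 95% intervals in the 3 genotype comparisons and per unit of the meiotic index; filled points have an edgeR adjusted p under 0.05 over all genes. Filled points occur in the last panel alone, for 7 of 8 genes, from -1.05 for Prdm14 to -0.57 for Kit.

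Most of the 8 genes also varied with the level of meiotic genes in a library. The labels give no stage, so a meiotic index was used, the mean log2 CPM of 34 tested recombination genes such as Dmc1 and Spo11, none of them among the 8. By replicate number, deficient libraries had indices of 5.62, 6.09, 4.64 and 5.34, heterozygous libraries 4.49, 6.64, 6.38 and 6.39, and wildtype libraries 5.63 and 5.60. In a model with genotype, 7 of the 8 genes fell along the index, where 11.5% of all tested genes were called lower by edgeR (2340 of 20317), 12.4% higher and 24% in all. The median slope of the 8 was -0.74 log2 units per unit of index, beside -0.0006 over all tested genes. The index and the 8 genes were read from the same libraries and no library was assigned to a stage.

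Prdm14 had the steepest slope, -1.05 (SE 0.09, edgeR adjusted p = 3.79e-05), which is 2.08-fold less per unit of index. Heterozygous replicates 1 and 2, the lowest and the highest in the index, held 73.6 and 15.4 CPM. Tfap2c followed at -1.02 (SE 0.10, edgeR adjusted p = 0.000102) and Prdm1 at -0.89 (SE 0.11, edgeR adjusted p = 0.000436). The 3 specification transcription factors had the 3 steepest slopes in this fit, an order that was not tested. The intervals of Dnd1 (-1.08 to -0.46) and Ifitm3 (-0.93 to -0.51) overlap those of Prdm1 (-1.14 to -0.64), Tfap2c (-1.24 to -0.80) and Prdm14 (-1.24 to -0.86). That of Nanos3 (-0.86 to -0.33) overlaps those of Prdm1 and Tfap2c. Of the RNA-binding factor genes, Dnd1 fell at -0.77 (SE 0.14, edgeR adjusted p = 0.00294) and Nanos3 at -0.59 (SE 0.12, edgeR adjusted p = 0.00545). The 2 genes of cell surface proteins fell too, Ifitm3 at -0.72 (SE 0.10, edgeR adjusted p = 0.000593) and Kit at -0.57 (SE 0.09, edgeR adjusted p = 0.00173). Kit kept 385 CPM even in heterozygous replicate 3, one of the 3 libraries highest in the index. Lin28a was not called, at -0.38 (SE 0.25, 95% interval -0.93 to 0.17, edgeR adjusted p = 0.309). Its interval holds the slopes of Kit, Nanos3, Ifitm3, Dnd1 and Prdm1, but not those of Tfap2c and Prdm14.

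**Figure D4:**
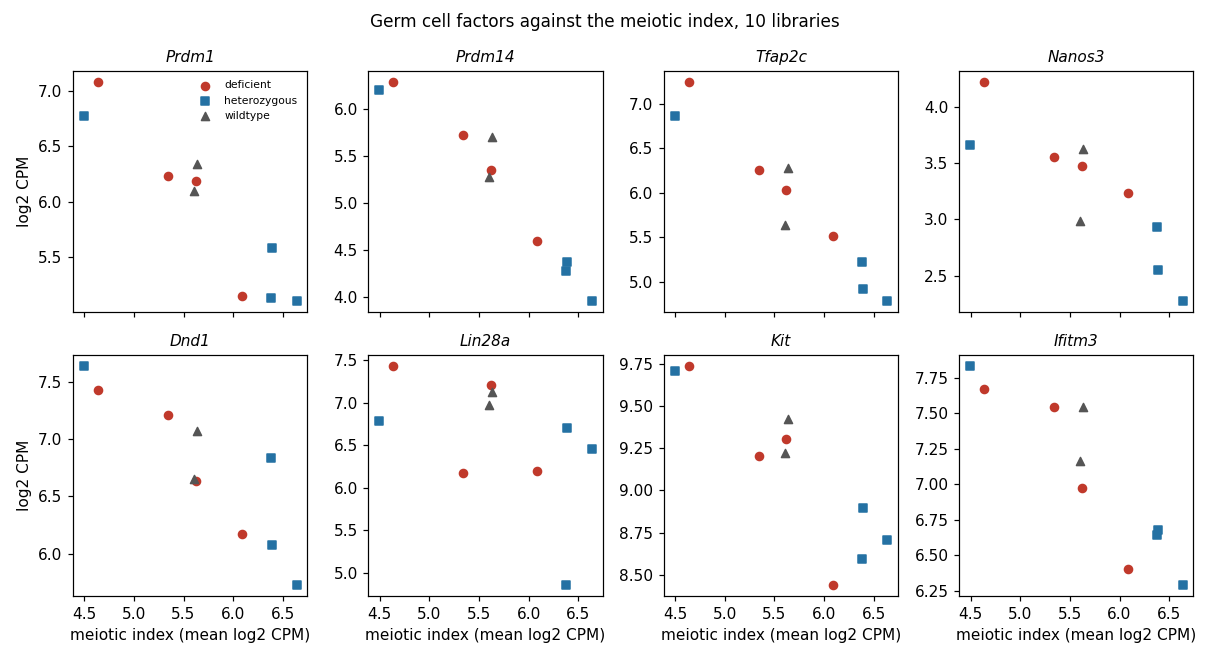
Log2 CPM of each gene against the meiotic index (mean log2 CPM of recombination genes), 1 point per library, coloured by Taf4b genotype. Heterozygous replicate 1 (index 4.49) and deficient replicate 3 (4.64) are the 2 highest libraries in every panel but that of Lin28a, and levels are lower toward heterozygous replicate 2 (6.64), which is the lowest in 6 of 8 panels.

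The slopes were also below 0 inside each litter date. Among the 4 libraries of January 29 least-squares slopes ran from -1.59 for Prdm14 to -0.85 for Kit, with Lin28a at -0.86. Among the 4 of March 7 they ran from -1.09 for Prdm14 to -0.51 for Kit, with Lin28a at -0.47. The 2 libraries of March 1 differed the same way, since deficient replicate 3 exceeded wildtype replicate 2 in all 8 genes, for example at 152 and 50.0 CPM in Tfap2c. These 2 differ in genotype as well as in index, which cannot be told apart there. The order of the genes changed with the date. Nanos3 was steeper than Prdm1 on January 29 (-1.20 and -1.15) and March 1 (-1.28 and -1.02), but not on March 7 (-0.59 and -0.83). The slopes within a date had no genotype term. Within genotypes the 4 deficient libraries gave -1.26 for Prdm1 and -1.15 for Prdm14, and the 4 heterozygous libraries -0.76 and -1.02. With litter date in the model the same 7 genes were called. Without heterozygous replicate 1 the slopes of Prdm14 (-1.16), Tfap2c (-1.19), Prdm1 (-1.24) and Ifitm3 (-0.90) kept their calls, while Dnd1 (-0.97, edgeR adjusted p = 0.107), Kit (-0.78, 0.0528) and Nanos3 (-0.72, 0.150) lost theirs, and 579 genes were called in place of 4866.

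With the index in the model, deficient over heterozygous changes were smaller in size than without it for 8 of the 8 genes and positive for 5: 0.43 for Nanos3, 0.26 for Lin28a, 0.25 for Tfap2c, 0.21 for Prdm14 and 0.03 for Prdm1. Dnd1 (-0.17), Kit (-0.11) and Ifitm3 (-0.10) turned below 0. None was called (edgeR adjusted p from 0.418 for Nanos3 to 0.960 for Prdm1). Heterozygous replicates 2, 3 and 4 (index 6.64, 6.38 and 6.39) lay above all deficient libraries (4.64 to 6.09). Index and genotype therefore cannot be fully told apart here, and whether the index itself depends on genotype was not tested.

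Pecam1, an endothelial gene also used as a surface marker of fetal germ cells, fell along the index by 1.22 (SE 0.08, edgeR adjusted p = 9.24e-06), while the other 5 endothelial genes stayed at the low sums given above. Heterozygous replicate 1, the lowest in the index, had the lowest stromal sum of the 10 libraries (3.29 CPM), 21.1 CPM of supporting cell markers and 11.4 CPM of blood and macrophage markers. Deficient replicate 3, the next lowest in the index, had 4.60, 31.9 and 20.9 CPM in the same order, and heterozygous replicate 2, the highest, 6.53, 26.1 and 14.3 CPM. The part of these markers in the slopes was not tested.

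Lin28a followed another difference between libraries. Gm23935, an annotated small RNA gene whose reads can stem from ribosomal RNA, stood at 454 and 141 CPM in deficient replicates 2 and 4 and 87.4 CPM in heterozygous replicate 3, whereas the remaining 7 libraries had 4146 to 5068 CPM. Lin28a stood at 28.9 to 73.6 CPM in those 3 libraries and at 87.9 to 173 CPM in the other 7. This split was made after the values were seen, and how many of all genes it separates was not counted. In a model with genotype and index, chosen after its values were seen, Lin28a changed by 0.27 log2 units per log2 unit of Gm23935 (SE 0.02, edgeR adjusted p = 6.61e-05), where 7.85% of all genes were called in that direction and 11.1% in either. Dnd1 changed the other way, -0.11 (SE 0.03, edgeR adjusted p = 0.0269), among 3.28% called lower, and lost this call without deficient replicate 4 or heterozygous replicates 2, 3 or 4 (adjusted p from 0.0604 to 0.559). The remaining 6 genes were not called, with values from -0.03 to 0.06. Without those 3 libraries the slope of Lin28a on the index was -0.13 (edgeR adjusted p = 0.136), and the 7 other genes kept their calls. The antisense gene Gm13061 overlaps 695 bases of Lin28a and had at most 20 reads in any library.

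Dnd1 also differed between the deposited tables. Its CPM divided by its TPM was 0.79 to 0.98 in 6 libraries and 1.80 to 2.12 in the other 4, which were heterozygous replicates 1, 2 and 4 and wildtype replicate 1. The spread of this ratio over libraries exceeded that of 98.7% of 10877 genes, while the other 7 genes lay at the percentile 62.9 or below. In TPM the Dnd1 change in deficient over heterozygous libraries was 1.22 (limma on log2(TPM + 0.1), adjusted p = 0.310), against 0.18 in counts, and its slope on the index lost its call (-0.62, adjusted p = 0.127). Wdr55, on the opposite strand, overlaps Dnd1 (chromosome 18, 36763671 to 36766214 of GRCm38, minus strand, up to 4 exons) by 140 bases, and its own ratio of 0.72 to 0.86 did not split. The processed pseudogene Dnd1-ps had at most 3 reads in any library. Levels of Dnd1 are therefore uncertain in TPM by about a factor of 2.

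**Figure D5:**
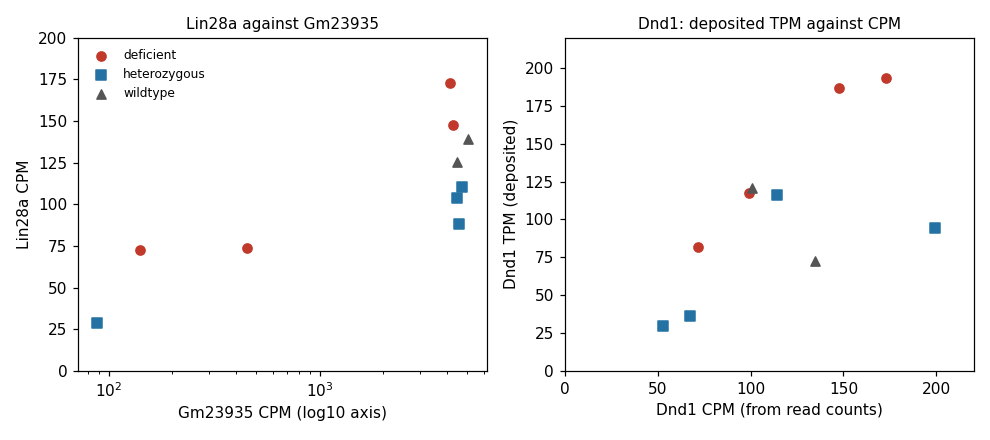
Left, Lin28a CPM against Gm23935 CPM (log10 axis); right, deposited Dnd1 TPM against Dnd1 CPM; 1 point per library by Taf4b genotype. Lin28a is under 74 CPM in the 3 libraries low in Gm23935, and 4 libraries fall below the other 6 in Dnd1 TPM at like CPM.

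Genes around the 8 factors were followed in lists. Their counts along the index stand beside 12.4% of all tested genes called higher and 11.5% called lower. None of the members of the 5 lists was called in a genotype comparison. In KIT signalling, 3 of 35 genes rose along the index, 9 fell and 23 were not called, a share of 8.57% higher and 25.7% lower. Stat3 (slope 0.65, edgeR adjusted p = 0.000740) and Stat5a (0.86, 0.00633), transcription factors of cytokine signalling, rose. The phosphatase gene Ptpn6 (-0.58, edgeR adjusted p = 0.00127), a brake on KIT, and the PI3-kinase subunit gene Pik3cd (-0.69, 0.00146) fell. Pik3ca, the catalytic subunit of another PI3-kinase, had the smallest p of this list in deficient over heterozygous (-0.77, edgeR adjusted p = 0.379) and in heterozygous over wildtype libraries (1.59, 0.243), and the transcription factor gene Foxo1 in deficient over wildtype libraries (0.86, edgeR adjusted p = 0.9999). Kitl, the ligand made by supporting cells, was low, at 1.44 to 6.77 CPM over all libraries.

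In the LIN28 and let-7 list 2 of 28 genes rose, 9 fell and 17 were not called (7.14% higher, 32.1% lower). The cyclin genes Ccnd1 (slope 0.82, edgeR adjusted p = 0.000186) and Ccnd2 (1.06, 0.000275) rose, and Trim71 (-0.58, 0.000861) and Arid3b (-0.38, 0.00364) fell. In the genotype comparisons the smallest p belonged to Ago3 (-0.53, edgeR adjusted p = 0.404) in deficient over heterozygous, to Cdc25a (0.51, 0.9999) in deficient over wildtype and to E2f5 (0.70, 0.273) in heterozygous over wildtype libraries. Of 25 tested NANOS, DND1 and deadenylase genes, the germ cell helicase gene Ddx4 rose (0.29, edgeR adjusted p = 0.00482) and Cnot2, which encodes a subunit of the CCR4-NOT deadenylase that NANOS proteins recruit, fell (-0.33, 0.00237). The other 23 were not called, and 4% called in each direction is below the shares over all genes. The smallest p in the genotype comparisons belonged to Cnot6l (-0.59, edgeR adjusted p = 0.390), Cnot11 (0.36, 0.9999) and Nanos1 (1.20, 0.328), in the same order.

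Among specification signals and chromatin partners, 14 of 36 tested genes fell along the index, 2 rose and 20 were not called (38.9% lower and 5.56% higher, against 11.5% and 12.4% of all genes). The pluripotency genes Nanog (-1.32, edgeR adjusted p = 7.86e-05) and Pou5f1 (-0.87, 0.000193) fell. Uhrf1, a factor of maintenance DNA methylation (0.75, edgeR adjusted p = 0.000862), and the BMP effector gene Smad1 (0.365, 0.0148) rose. Further pluripotency genes in this list fell, among them Utf1, Sall4, Sox2 and Esrrb, but Klf4 (-0.38, edgeR adjusted p = 0.0525) and Klf2 (-0.22, 0.508) were not called. The signalling genes Bmp4, Acvr1 and Wnt3 and the chromatin gene Prmt5 fell as well. Smad4, Smad5, Bmpr1a, Bmpr2, Dnmt3a, Hdac1 and Ehmt2 were among those not called. Dnmt3a (-0.42, edgeR adjusted p = 0.332), Kdm1a (1.35, 0.9999) and Klf2 (1.82, 0.243) had the smallest p in the genotype comparisons, in the same order. In the list of IFITM genes with Bst2, 4 of 6 tested genes fell, 1 rose and 1 was not called (66.7% lower and 16.7% higher, against 11.5% and 12.4% of all genes). Those that fell include Bst2, which is not an IFITM gene, and Ifitm6, with means of only 0.51 to 0.52 CPM per genotype. Ifitm1 (-0.72, edgeR adjusted p = 0.000116) and Ifitm2 (-0.47, 0.00859), close relatives of Ifitm3, fell, and Ifitm10 (0.65, 0.00426) rose. Bst2 (0.29, edgeR adjusted p = 0.570 in deficient over heterozygous; -0.55, 0.619 in heterozygous over wildtype) and Ifitm2 (-0.49, 0.9999 in deficient over wildtype) had the smallest p of that list. Reads of similar IFITM genes may be shared, which makes their split uncertain.

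The genes most like each factor were found by Pearson's r of log2 CPM over the 10 libraries among 10091 genes, as a description. For Prdm1 they were Rab27a (r = 0.992) and Pfkfb3 (0.988), for Prdm14 Blnk (0.996) and Calu (0.992), and for Tfap2c Plcd1 (0.993) and Mpp1 (0.993). Nanos3 was most like Wdr43 (0.993) and Krr1 (0.988), Dnd1 like Ptpn6 (0.986) and G3bp1 (0.985), and Ifitm3 like Tbc1d31 (0.991) and Vrtn (0.986). Kit was most like Cdh3 (0.989) and Cyp1b1 (0.988), and Lin28a like Ireb2 (0.990) and U2af2 (0.988). All these values share the libraries, their depth and the index, and with 10 libraries and this many candidates high values arise readily.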

How the data were processed

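Per the submitters' processing notes, HISAT2 2.1.0 mapped reads to GRCm38 after Trim Galore 0.5.0, with FastQC 0.11.5 and SAMtools 1.9 also named. The authors made the deposited counts with featureCounts (Subread 1.6.2). StringTie 1.3.3b gave the deposited TPM, per those notes. The sources used here give no settings, strand or annotation release. A DESeq2 table that the authors deposited has no stated contrast and was not used.

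Counts were kept by filterByExpr, scaled by TMM and fitted over 10 libraries with edgeR 4.0.16 in R 4.3.3 (quasi-likelihood; genotype groups, and genotype plus meiotic index for slopes). SE comes from the F statistic, and 95% intervals use its t multiple. Log2 CPM had a prior count of 2. DESeq2 1.42.0 and limma 3.58.1 (on TPM) served as alternatives. No 2 libraries of a genotype agreed within sampling noise (lowest chi-square per degree of freedom 11.8). Replicate numbers did not pair samples.

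Members and lists were chosen with earlier results of these data known. The naming rule took Taf4b, the 8 factors, per list up to 2 called genes per direction or the 1 with the smallest p, and the 2 most alike genes with at least 5 CPM. Dazl, Kitl, Pecam1, Gm23935, Gm13061, Wdr55 and Dnd1-ps were named after their values were seen, and Dmc1 and Spo11 as examples of their list. Further list genes were also named outside the rule, after their values were seen. They were Utf1, Sall4, Sox2, Esrrb, Klf4, Bmp4, Acvr1, Wnt3, Prmt5, Smad4, Smad5, Bmpr1a, Bmpr2, Hdac1, Ehmt2 and Ifitm6.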

Additional observations from a re-analysis of the deposited data

Results flagged for a closer look

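In the heterozygous group 1 library, replicate 1, stood far from the other 3 in 3 of the 8 genes. The gap to its nearest neighbour made up 0.911 of the group's range for Prdm14, 0.888 for Tfap2c and 0.841 for Ifitm3, each above the 95% limit of Dixon's test for 4 libraries. Of 16 groups of 4 examined, chance would flag about 1 in 20. This is the library with the lowest meiotic index, and the deficient over heterozygous and heterozygous over wildtype changes and the slopes are given with and without it above.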

How the results depend on the processing

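Over the alternatives, 161 of 168 slopes on the meiotic index kept their direction and side of the threshold; 7 lost their call and none turned, with values from -1.24 to -0.13. The number of genes called over all genes moved widely. In deficient against heterozygous libraries it was 3, and became 6 with DESeq2 size factors, 14 with no filter, 224 with DESeq2, 0 with litter date, 1 and 0 on TPM with pseudocounts of 0.1 and 1, 6 with the index as covariate, 17 with Gm23935 as covariate and 99 without the 3 libraries low in Gm23935 (an alternative chosen after seeing the data). Leaving out 1 library gave 0 to 344. In deficient against wildtype libraries 0 became 1 with no filter, with DESeq2 and with the index (0 to 1 with 1 library left out). In heterozygous against wildtype libraries 1 became 268 with no filter, 488 with DESeq2, 0 with litter date, 0 on TPM with either pseudocount, 3 with the index, 0 with Gm23935 as covariate, 186 without the 3 libraries, and 0 without any 1 library. None of the 8 genes was called in a genotype comparison under any of these. Leaving out 1 library gave 579 to 5595 genes called for the slope on the index. For the slope on Gm23935 it gave 1158 to 2334, against 2261, with 646 under litter date and 1336 and 1337 on TPM. The cause of these moves was not tested.

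Same-numbered deficient and heterozygous replicates came from different litters and correlated across genes at -0.42 to 0.38, and 1 of 4 deficient libraries correlated best with its own number. With the replicate block 0 genes were called in deficient against heterozygous and in heterozygous against wildtype libraries, and 1267 for the slope, where Kit (adjusted p = 0.0612) and Nanos3 (0.107) lost their calls by edgeR. Deficient over wildtype changes under the block turned to -0.026 for Prdm14, -0.16 for Prdm1 and -0.14 for Dnd1.

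Turned directions were otherwise all of uncalled changes, though Lin28a moved from -0.19 to 0.35 in deficient over wildtype libraries with Gm23935 as covariate. In deficient over wildtype libraries they were Prdm14 (-0.040) and Dnd1 (-0.10) with litter date, Prdm14 (-0.0034) and Prdm1 (-0.090) on TPM with 0.1, Prdm1 (-0.083) with 1, Prdm14 (-0.22), Prdm1 (-0.21) and Dnd1 (-0.16) with the index, Lin28a (0.35) and Kit (0.13) with Gm23935, and Lin28a (0.27), Kit (0.21) and Ifitm3 (0.00046) without the 3 libraries. With the index, deficient over heterozygous turned for Kit (-0.11), Ifitm3 (-0.096) and Dnd1 (-0.17), and heterozygous over wildtype for Dnd1 (0.010). With litter date the change of Prdm14 with Gm23935 was 0.0016 and that of Dnd1 lost its call (adjusted p = 0.178 by edgeR).

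With 1 library left out, deficient over wildtype ran from -0.14 to 0.29 for Dnd1, -0.31 to 0.065 for Ifitm3, -0.29 to 0.11 for Kit, -0.28 to 0.34 for Prdm1, -0.20 to 0.34 for Prdm14 and -0.024 to 0.76 for Tfap2c. Dnd1 ran from -0.013 to 0.65 in deficient over heterozygous and -0.59 to 0.093 in heterozygous over wildtype libraries, where Tfap2c ran from -1.005 to 0.062. Per log2 unit of Gm23935 the ranges were -0.052 to 0.0045 for Ifitm3, -0.064 to 0.029 for Nanos3, -0.015 to 0.020 for Prdm14 and -0.028 to 0.038 for Tfap2c.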
